A study of Homo sapiens with 3 samples.

Results

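The genes described here are 6 keratins, *KRT7*, *KRT8*, *KRT18*, *KRT19*, *KRT80* and *KRT81*, taken by symbol from a deposited table of 44591 genes. The table holds 55 keratin genes in all. RNA came from Caki-1, an established human clear cell renal cell carcinoma line, 48 h after transfection with a non-targeting siRNA (si-Control) or with 1 of 2 siRNAs that target RBCK1 (labelled si-HOIL-1#1 and si-HOIL-1#2 after HOIL-1, another name of RBCK1, called siRNA #1 and siRNA #2 here and si-RBCK1 #1 and #2 in the plots). RBCK1 is a ubiquitin ligase of the linear ubiquitin chain assembly complex, and the libraries were made to see which transcripts differ after its depletion. Each condition had 1 library, 3 libraries in all, and the siRNAs are different reagents with a shared si-Control library, so the differences below lack a replicate check and were not tested.

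Keratins are the intermediate filament proteins of epithelial cells. Each filament is built from pairs of a type I and a type II chain, and a chain without its partner is usually degraded. KRT8 (type II) and KRT18 (type I) form the primary pair of simple epithelia such as the kidney tubule. KRT7 (type II) and KRT19 (type I) join them in ducts and many carcinomas, and KRT7 is usually sparse in clear cell renal cell carcinoma. The other two members are not classed as simple epithelial keratins. KRT80 is a type II keratin of many epithelia, and KRT81 is a type II keratin of the hair shaft.

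The sense strands of both siRNAs are shown because they define the depleted libraries. Capitals mark the 7 bases that pair with bases 2 to 8 of the guide strand, the seed, through which a siRNA can also lower transcripts other than its target.
si-RBCK1 siRNA #1: ggtgcaccttcATCAACAa
si-RBCK1 siRNA #2: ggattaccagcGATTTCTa
Both 19-base strands are found in full in the *RBCK1* transcript and in 0 of the 6 keratin transcripts (GENCODE v29, the longest coding transcript paired with a RefSeq mRNA). The 7-base match to siRNA #1 was in 22.0% of 19005 such transcripts, and among the 6 keratins it was in *KRT8* alone, once, at bases 626 to 632 of its 1882-nt transcript.
KRT8 stretch: tcgagagctacATCAACAa
The 7-base match to siRNA #2 was in 25.2% of transcripts and in 0 of the 6 keratins. A match is a description of the sequence, and no effect of it was tested.

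The reads that each library was scaled by, found from the steps between low RPKM values (reads scaled by gene length and by library total), numbered 36926834 in si-Control, 40442939 in the siRNA #1 library and 36344428 in the siRNA #2 library. *RBCK1* itself was at 33.3 RPKM in si-Control, 9.97 RPKM with siRNA #1 and 12.3 RPKM with siRNA #2. Of 11 markers of a renal carcinoma line, *PAX8* (82.5 to 124 RPKM), *MET* (109 to 144 RPKM) and *VIM* (664 to 1512 RPKM) were well expressed. So were *NNMT* (68.2 to 72.2 RPKM) and *CDH2* (15.9 to 24.5 RPKM), and *CA12* was at 1.17 to 1.86 RPKM. The epithelial markers *CDH1* (1 to 4 reads) and *EPCAM* (at most 0.561 RPKM) and the hypoxia marker *CA9* (1 to 4 reads) were near 0. Also near 0 were *PAX2* (0 to 11 reads) and *CDH16* (0.261 to 0.468 RPKM). Leukocyte and endothelial markers, 4 of each, stayed at or below 0.315 RPKM in every library, and *CD3E* was at 0 in all 3. Of 4 fibroblast markers, *COL1A1* was at 3.21 to 4.68 RPKM and *PDGFRB* at 0.623 to 0.796 RPKM, and *COL1A2* and *DCN* were below 0.05 RPKM.

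Among the 6 keratins, the transcripts of the KRT8 and KRT18 pair were higher after RBCK1 depletion with both siRNAs, and those of KRT80 were lower. *KRT8* was 2.62-fold higher with siRNA #1 and 3.63-fold higher with siRNA #2, and *KRT18* was 1.49-fold and 1.80-fold higher. *KRT80* was at 60.6% and 64.3% of its si-Control level. *KRT7* was lower too, but on few reads and above 1 RPKM in si-Control alone. *KRT19* was higher from a low level, and *KRT81* was barely detected in any library. These folds are ratios of reads per library total.

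**Figure D1:**
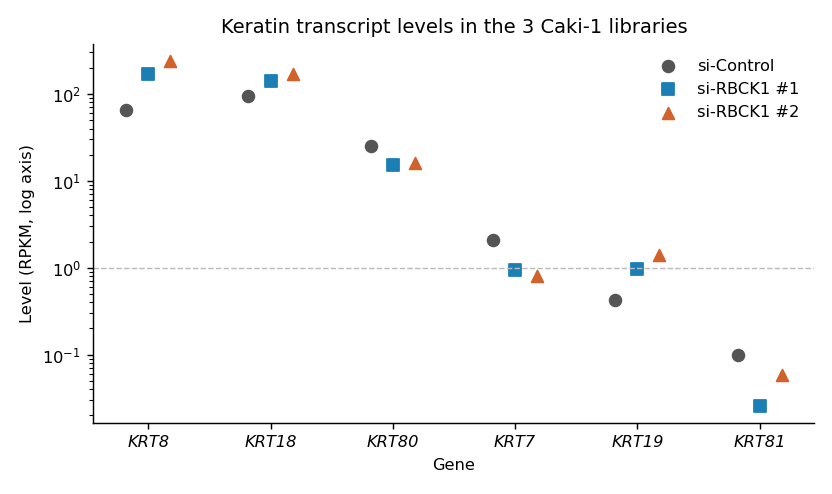
Level of each keratin gene in RPKM (vertical log axis) in the si-Control, siRNA #1 and siRNA #2 libraries, 1 point per library; the dashed line is at 1 RPKM. *KRT8* and *KRT18* lie above 65 RPKM in every library and higher in both depleted libraries, *KRT80* and *KRT7* lie lower in both, and *KRT81* stays under 0.1 RPKM.

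*KRT8* encodes the type II chain that most simple epithelial cells make first. It lies on chromosome 12 from 53290971 to 53343650 on the minus strand in hg19, the build of the table. Its level was 65.6 RPKM (5487 reads) in si-Control, 172 RPKM (15746 reads) with siRNA #1 and 238 RPKM (19606 reads) with siRNA #2. Both depleted libraries were thus above si-Control, and siRNA #2 was the highest. On the log2(RPKM + 1) scale, used for all ratios to si-Control unless reads are named, the ratios were 1.38 and 1.84. The 95% counting interval of the fold (on reads, exact Clopper-Pearson) was 2.54 to 2.70 with siRNA #1 and 3.52 to 3.74 with siRNA #2. These intervals do not cover differences between cultures. The siRNA #2 library held 1.39-fold the *KRT8* of the siRNA #1 library (interval 1.36 to 1.42).

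*KRT8* was the only 1 of the 6 past 2-fold on this scale, and it was past it with both siRNAs. The filter on low values kept 12403 genes, those averaging 1 RPKM or more. Of these, 2.91% were at least 2-fold higher with siRNA #1, 2.5% with siRNA #2 and 1.46% with both. A log2 ratio as high as that of *KRT8* was found for 108 genes (0.871%) with siRNA #1 and for 28 genes (0.226%) with siRNA #2, *KRT8* included. At least 2-fold lower were 3.27% and 2.27% of genes, and 0 of the 6 keratins on this scale.

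*KRT18* encodes the type I partner of KRT8. The gene lies beside *KRT8*, on the plus strand of chromosome 12 between 53342655 and 53346685. Its level was 95.3 RPKM (5403 reads) in si-Control, 142 RPKM (8838 reads) with siRNA #1 and 172 RPKM (9576 reads) with siRNA #2. The order of the libraries was the same as for *KRT8*, with smaller steps. The log2 ratios were 0.57 and 0.84, and the counting intervals of the fold were 1.44 to 1.55 and 1.74 to 1.86. Of all 12403 genes, 12.6% had a ratio at least this high with siRNA #1 and 4.43% with siRNA #2.

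The *KRT8* and *KRT18* genes are read in opposite directions and overlap by 996 bp at their 5′ ends. The library kit keeps the strand, but the strand setting of the counting is not given in the sources used here. Reads from that stretch could thus have been given to either gene or left uncounted. Both genes have many processed pseudogenes. Of the 50-base windows of the transcripts, 36.9% of those of *KRT8* and 31.8% of those of *KRT18* also occur in another keratin gene or pseudogene of GENCODE v29. Adding the reads of 36 pseudogenes to each gene left folds of 2.54 and 3.51 for *KRT8* and of 1.49 and 1.79 for *KRT18*. The sum holds only reads counted for some gene, so it cannot recover any left uncounted because they match several places.

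The 2 keratin pseudogenes with a mean of at least 1 RPKM were not higher in either depleted library. *KRT8P12* was at 3.18 RPKM in si-Control, 2.28 RPKM with siRNA #1 and 2.94 RPKM with siRNA #2. *KRT18P12*, which lies inside *PTPN14* on the opposite strand, was at 1.14, 0.770 and 1.10 RPKM in the same order. Both were highest in si-Control, but only *KRT8P12* with siRNA #1 differed from it beyond counting error. Both pseudogenes share few windows with the parent transcript, 0.200% of those of *KRT8P12* and 0.327% of those of *KRT18P12*.

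**Figure D2:**
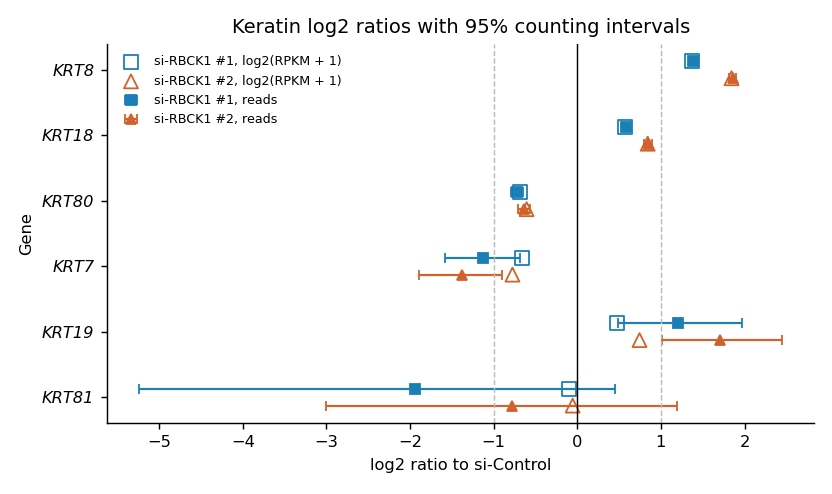
log2 ratio of each keratin gene in the siRNA #1 (squares) and siRNA #2 (triangles) libraries to si-Control; filled symbols are ratios of reads with 95% exact counting intervals, open symbols are on the log2(RPKM + 1) scale, and dashed lines mark 2-fold. *KRT8* lies past 2-fold on both scales, *KRT7* and *KRT19* on reads alone, and the *KRT81* intervals span 0.

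The level of *KRT8* against *KRT18* differed between si-Control and both depleted libraries. With si-Control, *KRT8* was at 0.688 of *KRT18* by RPKM (counting interval 0.663 to 0.715). The ratio was 1.21 (1.18 to 1.24) with siRNA #1 and 1.39 (1.35 to 1.42) with siRNA #2. By RPKM, the type I chain was thus the more abundant transcript in si-Control, and the type II chain in both depleted libraries. The counting intervals leave out errors from gene length, the overlap of the genes and reads shared with pseudogenes. Which chain is more abundant in a library is thus less sure than the difference between libraries. With *KRT7* added to the type II side and *KRT19* to the type I side, the ratios were 0.707, 1.21 and 1.38. *KRT80*, also type II, at 25.1, 15.2 and 16.1 RPKM, was left out of them. Over all keratin genes, *KRT80* and the type I gene *KRT10* among them, the ratios were 0.744, 1.08 and 1.27. RPKM is scaled by gene length, so transcripts of different genes can be set side by side only as far as those lengths hold. The *KRT8* values fit a length of 2265 nt, and its transcript used above has 1882 nt. The 3 libraries measure mRNA and not the filament proteins.

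The summed level of the 6 keratins was 189 RPKM in si-Control, 331 RPKM with siRNA #1 and 428 RPKM with siRNA #2. *KRT8* made up 34.8% of this sum in si-Control, 51.9% with siRNA #1 and 55.6% with siRNA #2. *KRT18* made up 50.5%, 43.0% and 40.1%, and *KRT80* 13.3%, 4.59% and 3.76%. In bulk RNA, a change in the share of cells that express a keratin and a change in its RNA per cell cannot be told apart.

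**Figure D3:**
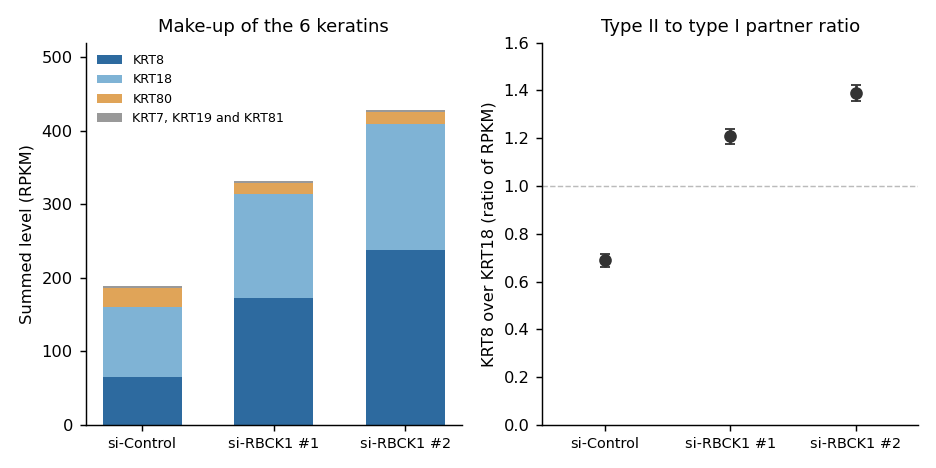
Left, summed RPKM of the 6 keratins in each library, stacked by gene; right, *KRT8* over *KRT18* as a ratio of RPKM in each library with the 95% counting interval, with a dashed line at 1. The sum goes from 189 RPKM in si-Control to 331 and 428 RPKM, and the ratio from 0.688 to 1.21 and 1.39.

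*KRT80*, the third most abundant of the 6, moved the other way. It lies on chromosome 12 from 52562780 to 52585784 on the minus strand, in the type II keratin cluster that also holds *KRT7*, *KRT81* and *KRT8*. Its level was 25.1 RPKM (3603 reads) in si-Control, 15.2 RPKM (2393 reads) with siRNA #1 and 16.1 RPKM (2281 reads) with siRNA #2. Both depleted libraries lay below si-Control and close to each other. The log2 ratios were -0.69 and -0.61, and the counting intervals of the fold were 0.576 to 0.639 and 0.610 to 0.678. Of all genes, 8.49% and 8.68% had a ratio at least this low. *KRT8* was 2.62 times the level of *KRT80* in si-Control, 11.3 times with siRNA #1 and 14.8 times with siRNA #2.

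*KRT7*, a type II chain of ducts and of many carcinomas, was low in all 3 libraries. The gene is on the plus strand of chromosome 12 between 52626954 and 52642709, next to *KRT80* among the members. Its level was 2.07 RPKM (130 reads) in si-Control, 0.944 RPKM (65 reads) with siRNA #1 and 0.792 RPKM (49 reads) with siRNA #2. An antisense gene of at most 0.195 RPKM overlaps it by 2401 bp. Only the si-Control level was above 1 RPKM, so *KRT7* passed the filter on low values through that library. The log2 ratios were -0.66 and -0.78. On reads, *KRT7* was at 45.7% of si-Control with siRNA #1 and at 38.3% with siRNA #2, past 2-fold in both, with counting intervals of the fold of 0.334 to 0.619 and 0.270 to 0.536. Genes past 2-fold on reads in either direction made up 11.6% of those that passed the filter with siRNA #1 and 9.49% with siRNA #2.

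*KRT19*, the smallest type I keratin and a marker of ductal cells, was lower still. It lies in the type I cluster, on chromosome 17 from 39679869 to 39684641 on the minus strand. Its level was 0.423 RPKM (23 reads) in si-Control, 0.975 RPKM (58 reads) with siRNA #1 and 1.38 RPKM (74 reads) with siRNA #2. Both depleted libraries were above si-Control, and the step between them, 1.42-fold with a counting interval of 0.993 to 2.04, was within counting error. The log2 ratios were 0.47 and 0.74, and the folds on reads were 2.30 (interval 1.40 to 3.91) and 3.27 (2.02 to 5.47). Its mean was 0.927 RPKM, so *KRT19* did not pass the filter. Without the filter, 27.1% and 24.3% of the genes with a read in both libraries compared were past 2-fold on reads in either direction.

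*KRT81* had 7 reads in si-Control, 2 with siRNA #1 and 4 with siRNA #2 (0.0992, 0.0259 and 0.0576 RPKM). It lies on chromosome 12 from 52679697 to 52685299, wholly inside *KRT86*, which is on the opposite strand. The counting intervals of the fold, 0.0264 to 1.37 and 0.125 to 2.28, include 1. Of the 50-base windows of *KRT81*, 44.6% occur in another keratin gene, most often *KRT86* (38.4%), so its few reads may have been split between hair keratins. *KRT81*, *KRT83* and *KRT86* together had 15, 8 and 15 reads.

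In all, 4 of the 6 keratins passed the filter, and *KRT19* and *KRT81* did not. With each siRNA, 3 were higher than si-Control (*KRT8*, *KRT18* and *KRT19*) and 3 were lower (*KRT7*, *KRT80* and *KRT81*). Of all 12403 genes, 51.5% were higher with siRNA #1 and 53.5% with siRNA #2, so this count is near that of all genes. The direction of *KRT81* was within counting error. The median log2 ratio over all 6 was 0.19 with siRNA #1 and 0.34 with siRNA #2, and the median over the 12403 genes was 0.02 and 0.03. With a pseudocount of 0.1 RPKM the median of the 6 with siRNA #1 was -0.04, so its sign depended on the pseudocount. The order of the members by level was *KRT18*, *KRT8*, *KRT80*, *KRT7*, *KRT19* and *KRT81* in si-Control. In both depleted libraries *KRT8* came first and *KRT19* stood above *KRT7*, although with siRNA #1 the last pair, at 0.975 and 0.944 RPKM on 58 and 65 reads, did not differ beyond counting error.

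Of the 55 keratin genes in the table, 47 were below 0.5 RPKM in every library, and *KRT9*, *KRT20* and *KRT25* were at 0 in all 3. Besides the members, *KRT10*, *KRT15* and *KRT222* had a mean of at least 1 RPKM. *KRT15*, a type I keratin of basal cells and the gene next to *KRT19* among keratins, was at 2.22 RPKM (151 reads) in si-Control, 6.77 RPKM (504 reads) with siRNA #1 and 5.76 RPKM (385 reads) with siRNA #2. Its log2 ratios were 1.27 and 1.07, and it stood above si-Control in both depleted libraries like *KRT19*. *KRT10*, a type I keratin of differentiating epidermis, was at 25.2, 21.7 and 19.2 RPKM in that order, with log2 ratios of -0.20 and -0.37. It overlaps *TMEM99* on the opposite strand by 3520 bp. *KRT222*, a short keratin-like gene, was at 1.61, 1.55 and 2.08 RPKM. The 17 hair keratins together reached at most 0.809 RPKM in a library.

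**Figure D4:**
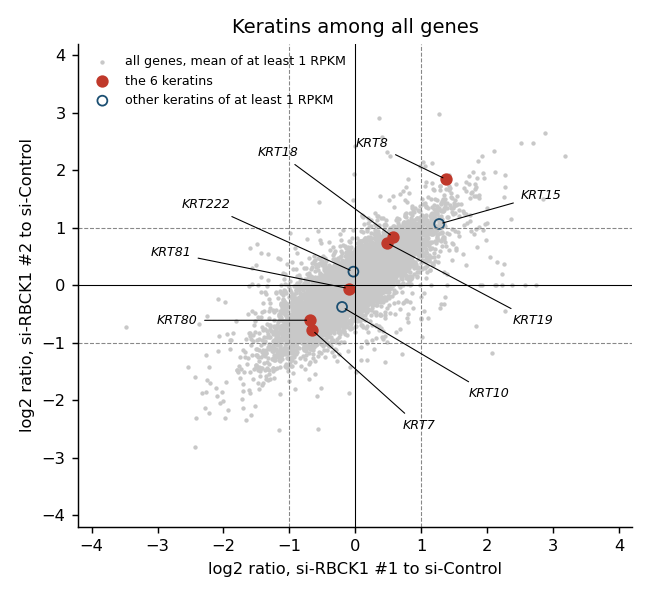
log2 ratio to si-Control on the log2(RPKM + 1) scale with siRNA #1 (horizontal) against siRNA #2 (vertical) for 12403 genes (grey), the 6 keratins (red) and other keratins of at least 1 RPKM (open); both axes share the si-Control library, and dashed lines mark 2-fold. *KRT8* at 1.38 and 1.84 lies past 2-fold on both axes, *KRT18* and *KRT19* lie in the same quadrant, and *KRT7* and *KRT80* lie in the opposite one.

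Among 5545 other protein-coding genes averaging 10 RPKM or more, those whose pair of log2 ratios was nearest to that of *KRT8* over the 3 libraries were *PRKCDBP* (1.29 and 1.73, distance 0.142), *SLC25A10* (1.44 and 1.70, distance 0.154) and *CDT1* (1.53 and 1.77, distance 0.171). PRKCDBP is a caveola protein, SLC25A10 a mitochondrial dicarboxylate carrier and CDT1 a replication licensing factor. The distance is Euclidean, on log2 units. No like genes are given for *KRT81*, since with 7, 2 and 4 reads its ratios are held near 0 by the pseudocount of 1 RPKM.

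Among the other intermediate filament genes, *VIM* and the lamins went with *KRT8* rather than *KRT80*. Of 15 listed, 5 had a mean of at least 1 RPKM, and of these *VIM*, *LMNA*, *LMNB1* and *LMNB2* were higher with both siRNAs. *SYNM* was higher too, but it passed the filter only through the depleted libraries, so its direction was set by the filter. Of all 12403 genes, 51.5% were higher with siRNA #1 and 53.5% with siRNA #2. The share higher with both was not computed. The log2 ratios of *LMNA* were 0.79 with siRNA #1 and 1.04 with siRNA #2. The median over all genes was 0.02 and 0.03. *VIM*, the mesenchymal filament protein that renal carcinoma cells make together with keratins, was at 664 RPKM in si-Control, 1512 RPKM with siRNA #1 and 1392 RPKM with siRNA #2 (log2 ratios 1.19 and 1.07). *LMNB1*, a lamin of the nuclear envelope, was at 7.62, 17.4 and 23.9 RPKM (1.10 and 1.53), and *LMNB2* at 16.7, 32.9 and 34.02 RPKM (0.94 and 0.99). *SYNM*, a filament cross-linker, was at 0.420, 1.48 and 1.61 RPKM. The other 10, nestin, desmin and the neurofilaments among them, had means below 1 RPKM.

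Keratin filaments end at desmosomes, which join cells, and at hemidesmosomes, which hold cells to the matrix. Of 14 desmosome genes 8 passed the filter, 7 of them lower with siRNA #1 and 6 with siRNA #2. Only 5 of the 8 were lower with both, and 3 went in opposite directions, joint counts for which no share of all genes was computed. The median log2 ratios were -0.39 and -0.11, with none past 2-fold, and of all 12403 genes 51.5% and 53.5% were higher. *PKP2*, a plakophilin of the desmosome plaque, was at 3.83 RPKM in si-Control, 1.82 RPKM with siRNA #1 and 2.19 RPKM with siRNA #2. *PKP4* was at 21.0, 16.0 and 15.8 RPKM, and *DSG2*, a desmosomal cadherin, at 37.0, 23.5 and 33.4 RPKM. *PERP* was at 12.2, 11.2 and 10.9 RPKM. *DSP*, encoding desmoplakin, the protein that anchors keratins at the desmosome, had 35, 46 and 114 reads (at most 0.32 RPKM), named here after its values were seen.

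Of 6 hemidesmosome genes 4 passed the filter, with median log2 ratios of -0.06 and 0.21. *PLEC*, encoding plectin, which links keratins to hemidesmosomes and to other filaments, was at 27.1 RPKM (16483 reads) in si-Control, 51.4 RPKM (34198 reads) with siRNA #1 and 70.1 RPKM (41961 reads) with siRNA #2. Its log2 ratios of 0.90 and 1.34 put the libraries in the same order as *KRT8*. *ITGA6*, the alpha chain of the hemidesmosome integrin, was at 5.53, 3.08 and 4.85 RPKM, and *CD151* at 170, 174 and 186 RPKM.

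Of 14 genes for keratin binding and organising proteins 10 passed. With siRNA #1 5 of them were higher and with siRNA #2 6, beside 51.5% and 53.5% of all 12403 genes. In both depleted libraries 5 were higher and 4 lower, counts for which no share of all genes was computed. The median log2 ratio was 0.03 with siRNA #1 and 0.27 with siRNA #2. *FAM83H*, a protein that recruits casein kinase 1 to keratin filaments, was at 4.02 RPKM in si-Control, 8.001 RPKM with siRNA #1 and 9.68 RPKM with siRNA #2 (log2 ratios 0.84 and 1.09). *AKAP8*, a nuclear scaffold protein, was at 6.97, 13.5 and 13.5 RPKM. *PPL*, encoding periplakin, was at 1.96, 0.511 and 0.803 RPKM (-0.97 and -0.71) and passed the filter only through si-Control, where it was highest.

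The 16 of 24 epithelial transcription factors that passed were close to the background, with medians of 0.08 and 0.09 and none past 2-fold. With siRNA #1 10 of the 16 were higher and with siRNA #2 10, beside 51.5% and 53.5% of all 12403 genes. With both siRNAs 6 were higher, 2 lower, and 8 went in opposite directions. The shares of all genes in these joint counts were not computed. *JUND*, an AP-1 factor, was at 43.1 RPKM in si-Control, 67.8 RPKM with siRNA #1 and 71.1 RPKM with siRNA #2, and *JUNB* was at 33.8, 44.3 and 42.9 RPKM. *KLF5* was at 3.98, 1.77 and 2.78 RPKM, and the ETS factor *ELF1* at 24.2, 17.8 and 16.8 RPKM. *GRHL2* and *OVOL2*, regulators of the epithelial state, were at 0.0104 RPKM or less in every library and are named after their values were seen.

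Of 16 epithelial surface and glandular genes only 3 passed the filter. *CLDN1*, a tight junction claudin, was at 762 RPKM in si-Control, 310 RPKM with siRNA #1 and 246 RPKM with siRNA #2, log2 ratios of -1.29 and -1.63. *SPINT2*, a protease inhibitor, was at 5.77, 2.36 and 4.89 RPKM. The other gene that passed, *CLDN4*, was at 1.36, 1.47 and 1.16 RPKM. The 3 genes thus did not share the direction of *KRT8* in both libraries.

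**Figure D5:**
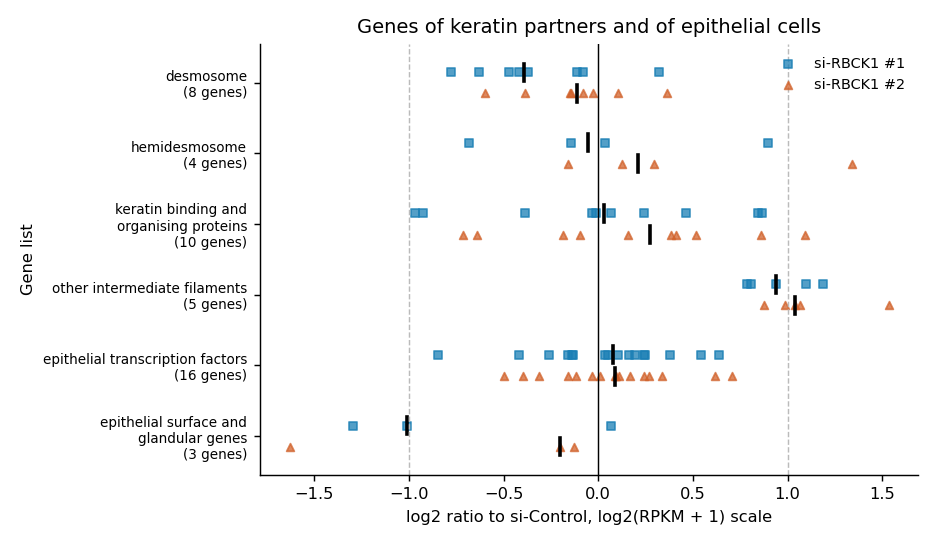
log2 ratios to si-Control on the log2(RPKM + 1) scale for genes of 6 lists that passed the filter, with siRNA #1 (squares) and siRNA #2 (triangles), 1 point per gene; black bars are medians and dashed lines mark 2-fold. All 5 other intermediate filament genes lie right of 0 in both libraries, and most of the 8 desmosome genes lie left of it. Among the 5, *SYNM* passed the filter only through the depleted libraries, so the median bars of that list include a gene whose direction was set by the filter.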

How the data were processed

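RNA of Caki-1 cells was sequenced in 3 libraries after rRNA removal, 1 per condition. The authors deposited 1 RPKM value per gene and library, and the submitters' processing notes name Trimmomatic, FastQC, TopHat2, HTSeq and hg19; the gene annotation is not given in the sources used here. Library totals were found from RPKM values of pseudogenes with 1 exon (length as in the table). Each gene's reads are the smallest whole numbers that its 3 RPKM values allow at a length of up to 50000 nt. For genes with few reads these numbers can be lower bounds. log2 ratios used a pseudocount of 1 RPKM, which understates changes of low genes. With 1 library per condition no p-value was computed, and 95% exact Clopper-Pearson intervals cover counting error only. The deposited comparison columns (fold changes, p-values and q-values) were not used, and 1 entry that is not a number was left out. Named genes are the 6 keratins, other keratins of at least 1 RPKM, and from each list up to 4 genes with the largest smaller ratio in both libraries; 1 gene that the rule names is not reported here. The members and lists were chosen with earlier results of these data known. Alternatives changed the pseudocount, scaling, filter, fold limit and the treatment of near-identical genes. The steps were tested on simulated data. Intervals came from scipy 1.17.1 and plots from matplotlib 3.10.9, run in Python 3.11.15 with pandas 2.3.3 and numpy 2.4.6.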

Additional observations from a re-analysis of the deposited data

Results flagged for a closer look

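The 2 siRNAs gave opposite directions for some genes named here and for the median of 1 list; with 1 library each, the difference was not tested. *KRT222* had a log2 ratio to si-Control of -0.030 under siRNA #1 and 0.24 under siRNA #2. The median of the 4 hemidesmosome genes was -0.056 and 0.21. *TNS2*, a tensin gene downstream of *KRT18* on chromosome 12, had -0.66 and 0.39. *CLDN4* had 0.066 and -0.13. Of the genes in the 6 lists that passed the filter, 8 epithelial transcription factors, 3 desmosome genes and 1 each of the hemidesmosome, keratin-binding and surface genes went in opposite directions. The 6 keratins each kept 1 direction with both siRNAs on this scale, but both ratios share the si-Control library. The shares of all genes that kept or changed direction were not computed, so these counts are no result about the keratins or the lists. For *KRT81*, on 7, 2 and 4 reads, the direction was within counting error.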

How the results depend on the processing

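No paired analysis was possible because there was a single library for every condition. Results on reads without a pseudocount were added for the median and the count after seeing the data. Of 68 log2 ratios of single keratins under the alternatives, 52 stayed, 15 moved and 1 changed sign. Those 52 lay no further from the main value than the counting interval reaches, on average, to either side. Genes with few reads have wide intervals and stay easily, so the 52 are no measure of stability. With siRNA #1, *KRT81* stayed while going from -0.0996 to -1.94 on reads. *KRT8* moved while going from 1.376 to 1.325 at 5 RPKM. The change of sign was *KRT81* with siRNA #2, 0.023 when summed with *KRT83* and *KRT86*. The median of the 6 keratins with siRNA #1 was -0.042 with a pseudocount of 0.1 RPKM, 0.059 at 5 RPKM and -0.071 on reads; with siRNA #2, 0.344 in the report, it was 0.112 at 5 RPKM and 0.106 on reads. Without *KRT80* and *KRT81* it was 0.523 and 0.793. At 2-fold, 1 keratin passed with each siRNA. The count was 2 for each at 0.1 RPKM or on reads, with *KRT7* added on reads, a gene that passed the filter only through si-Control. On reads, 11.6% and 9.49% of the genes that passed the filter were past 2-fold. Without the filter 4 and 3 of 6 passed on reads, beside 27.1% and 24.3% of genes with a read in both libraries compared. At 1.5-fold 3 and 4 keratins passed, where 1499 and 1400 of the 12403 genes were higher and 1435 and 1156 lower. At 4-fold 0 keratins passed. The ratio of type II to type I keratins was 0.744, 1.08 and 1.27 (si-Control, siRNA #1, siRNA #2) over all keratin genes. Genes at least 2-fold higher numbered 361 and 310, against 616 and 563 at 0.1 RPKM and 114 and 101 at 5 RPKM; those lower numbered 405 and 281, against 730 and 522, and 105 and 97. With a mean of at least 5 RPKM, 237 were higher with siRNA #1, and 218 and 174 were lower. Limits of 1.5-fold and 4-fold gave 1499, 1400, 24 and 17 higher and 1435, 1156, 23 and 14 lower. Where a change does not follow from the limit itself, the cause was not tested. *KRT81*, *KRT19* and *KRT7* are limited by depth.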

Other observations

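The nearest expressed protein-coding genes around the chromosome 12 keratins, picked by distance after the keratin values were seen, had smaller ratios than *KRT8*. *EIF4B*, a translation initiation factor gene 53357 bp beyond *KRT18*, was at 96.7 RPKM in si-Control, 107 RPKM under siRNA #1 and 120 RPKM under siRNA #2 (log2 ratios 0.14 and 0.31). *TNS2*, 94125 bp beyond *KRT18*, was at 4.21, 2.30 and 5.83 RPKM. On the side of *KRT80*, *ATG101* (autophagy initiation) was at 27.7, 20.2 and 24.9 RPKM and *ACVR1B* (an activin receptor) at 7.62, 8.38 and 8.36 RPKM.

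Low keratin pseudogenes included some, picked after their values were seen, with more reads in both depleted libraries. *KRT18P5* had 3 reads in si-Control, 29 under siRNA #1 and 25 under siRNA #2, *KRT18P4* had 5, 26 and 23, and *KRT18P55* had 14, 43 and 40. Of 120 keratin pseudogenes in the table, 83 had a read in at least 1 library.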
